A study of Mus musculus with 20 samples.

Results

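The Hox genes encode transcription factors that set position along the head-to-tail axis of the body, the gut included. They were taken as every row of the distal colon (DC) count table whose Ensembl identifier belongs to a protein-coding mouse gene named Hox, a cluster letter from a to d and a paralog number. Of 39 such genes in the annotation, 34 had a row among the 26619 rows of the table, with 11 genes of the HoxA cluster, 9 of HoxB, 6 of HoxC and 8 of HoxD. The other 5 (Hoxb1, Hoxc11, Hoxc12, Hoxc13 and Hoxd1) were not analysed here. Of the 34 genes, 29 had enough counts to be tested across diets, and Hoxc4 was the 1 tested HoxC gene.

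The samples were DC pieces taken near the anal end of the bowel from C57BL/6 mice, 1 mRNA library per mouse. Every mouse ate the Total Western Diet (TWD), a purified diet whose nutrients follow what Americans typically eat, for 6 weeks from weaning. For a further 3 weeks the TWD held 0, 2, 5 or 10% resistant potato starch (RPS), a starch that escapes digestion in the small intestine and is fermented by bacteria of the large bowel, with 5 mice on each diet. For 3 of the 20 mice the description label, used here, and the treatment label give different diets. Mouse RS10_717 is at 5% RPS by the first and 2% by the other, mouse RS10_725 at 10% and 5%, and mouse RS10_748 at 2% and 10%.

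In the genome each Hox cluster is a row of genes read in the same direction, and genes with the same number in different clusters descend from a common ancestral gene and form a paralog group. Genes at the low-numbered end of a cluster are active towards the head and those at the high-numbered end towards the tail, an arrangement called colinearity. Groups 9 to 13 are the posterior, Abd-B-like genes, and group 13 marks the end of the trunk, including the hindgut, the distal limb and the urogenital tract. In the adult gut Hox genes are transcribed in the muscle and connective tissue of the wall and, for some members, in the epithelium. Because whole pieces of tissue were sequenced, fewer cells of a type and less RNA per cell cannot be told apart in any value below.

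Levels are given as counts divided by the library size in megacounts (CPM) after TMM scaling (trimmed mean of M-values, which corrects library sizes for differences in composition). Levels of different genes are compared only per kilobase (kb) of exon sequence, since a longer mRNA gives more reads. Total counts were 18.4 to 34.97 megacounts per mouse, with diet means of 32.8 megacounts at 0% RPS, 27.9 at 2%, 28.3 at 5% and 24.3 at 10%, so depth and diet are partly aligned. A count of 3, used as the floor of detection, corresponded to 0.0850 to 0.163 CPM. Mouse RS10_721 on 5% RPS stood apart in the HoxD cluster and in its tissue makeup, and results that it touched are also given without it. RNA of tissue next to the colon was present in some libraries. The summed level of 2 prostate genes (Pbsn and Msmb) was 78.1 CPM in mouse RS10_707 (0% RPS), 52.1 CPM in mouse RS10_724 (5% RPS) and 2.99 CPM in mouse RS10_729 (10% RPS), and under 1 CPM in the other 17 mice. In the mice with the highest sums nearly all of it was Pbsn, since Msmb reached at most 0.357 CPM in any mouse.

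The 3 genes of paralog group 13 are those of the tail end of the trunk, and their DNA-binding segment shows how far they can be told apart by sequence. The homeobox, the 180 bases that code for the DNA-binding homeodomain, is shown from the GRCm39 genome for these 3 genes and for Hoxd10 and Hoxb9, the members of groups 10 and 9 with the highest level per kilobase of all exons (Hoxa10 exceeds Hoxd10 when the longest transcript is the length). Capitals mark the codons of the third helix, the segment that lies in the major groove of DNA, and each homeobox lies within a single exon. Hoxa13 is at chr6:52235908-52236087 on the minus strand, Hoxb13 at chr11:96086846-96087025, Hoxd13 at chr2:74500274-74500453, Hoxd10 at chr2:74524485-74524664 and Hoxb9 at chr11:96165485-96165664, the last 4 on the plus strand.
Hoxa13: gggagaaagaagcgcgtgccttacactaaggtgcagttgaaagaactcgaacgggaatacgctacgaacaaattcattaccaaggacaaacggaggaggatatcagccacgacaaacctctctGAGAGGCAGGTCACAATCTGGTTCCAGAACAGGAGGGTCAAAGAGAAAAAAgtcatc
Hoxb13: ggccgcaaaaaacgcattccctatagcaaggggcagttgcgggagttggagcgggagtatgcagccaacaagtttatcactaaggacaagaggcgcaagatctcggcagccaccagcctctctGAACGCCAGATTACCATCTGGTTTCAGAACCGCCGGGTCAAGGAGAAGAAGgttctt
Hoxd13: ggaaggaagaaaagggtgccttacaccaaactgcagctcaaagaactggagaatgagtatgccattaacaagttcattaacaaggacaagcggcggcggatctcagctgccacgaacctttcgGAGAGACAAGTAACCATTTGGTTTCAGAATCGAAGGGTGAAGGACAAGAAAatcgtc
Hoxd10: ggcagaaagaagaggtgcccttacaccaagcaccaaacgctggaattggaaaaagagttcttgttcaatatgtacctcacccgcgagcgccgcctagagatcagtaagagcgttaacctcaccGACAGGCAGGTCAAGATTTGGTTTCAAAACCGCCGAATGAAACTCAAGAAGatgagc
Hoxb9: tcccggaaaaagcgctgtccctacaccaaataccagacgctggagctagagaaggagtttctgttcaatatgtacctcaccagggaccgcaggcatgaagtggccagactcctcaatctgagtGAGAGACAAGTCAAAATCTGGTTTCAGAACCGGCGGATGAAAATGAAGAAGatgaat

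Hoxa13 and Hoxb13 shared 124 of the 180 homeobox bases (68.9%), Hoxa13 and Hoxd13 133 (73.9%), and Hoxb13 and Hoxd13 121 (67.2%). The longest identical stretch within these 3 pairs was 11 bases, against a read length of 50 bases. Over the 561 pairs that the 34 homeoboxes form, 1 pair (Hoxa6 and Hoxb4) shared a stretch as long as a read, at 52 bases. Across whole transcripts, Hoxa13, Hoxb13 and Hoxd13 had 0 stretches of 50 bases in common with a transcript of another gene. A read from one of them thus had no second exact match among the annotated transcripts. The rest of the genome and the opposite strand were not searched. Hoxd3 and Hoxd4 are the uncertain members, since 36.88% and 46.48% of their 50-base stretches also lie in each other's or in Gm28230 transcripts. A further 3.1% of the stretches of Hoxd10 and 7.12% of those of Hoxd11 are shared with other transcripts, Gm28309 among them. Antisense transcripts cover 43.6% of the exon bases of Hoxa11 (Hoxa11os) and 51.5% of those of Hoxb3 (Hoxb3os), and whether strand was used in the counting is not given in the sources used here, so the counts of these genes are uncertain as well.

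Group 13 dominated the Hox RNA of the DC. Hoxb13, a posterior gene known from the hindgut and the prostate, was the most abundant Hox gene at 205 ± 26.7 CPM per kb (SD, n = 20 mice) and made up 49.8 ± 3.70% of the summed level per kb of the 34 genes. Hoxd13, which patterns digits, genitalia and the anal sphincter, followed at 73.2 ± 15.5 CPM per kb, or 17.7 ± 3.09% of the sum. Hoxa13, required with Hoxd13 for the end of the hindgut and the urogenital sinus, lay at 21.2 ± 2.68 CPM per kb, or 5.18 ± 0.642%. The 3 genes together held 72.7 ± 1.53% of the summed level per kb, with a range over mice of 70.1 to 75.6%. The 13 genes of groups 9 to 13 held 91.7 ± 1.01%, and the other 21 genes shared the rest. The labelled site is the distal end of the colon, and the genes at high level were of the posterior groups. No other segment of the bowel was compared here.

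**Figure D1:**
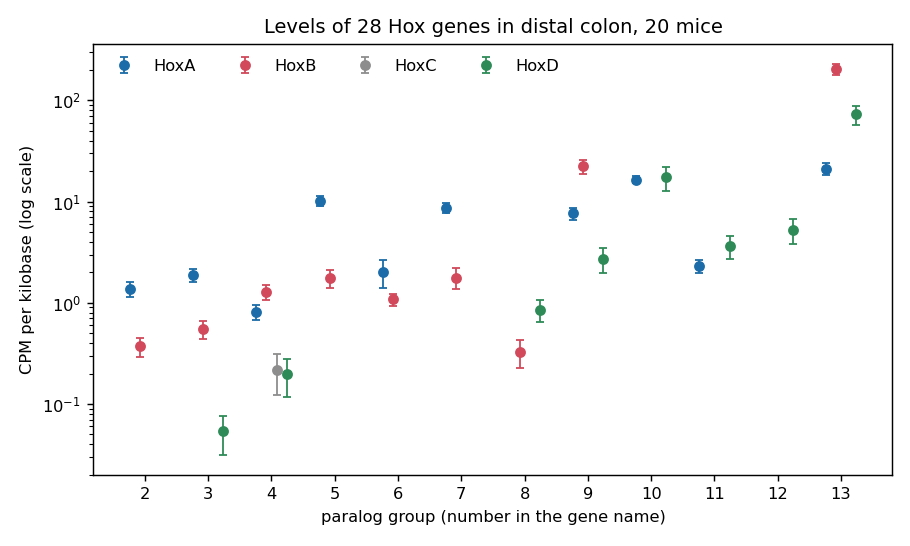
Level of 28 of the 29 tested Hox genes by paralog group, as CPM per kb of exon on a log axis, with points for the mean and bars for the SD over 20 mice and one color per cluster. Hoxb13 (205 CPM per kb) and Hoxd13 (73.2 CPM per kb) lie above the other genes, and Hoxd3 (0.0538 CPM per kb) lies lowest.

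Below the first pair the order of levels was less sharp. Hoxb13 exceeded Hoxd13 per kb in 20 of 20 mice, and Hoxd13 exceeded Hoxb9 in 19 of 20, the exception being mouse RS10_721. Hoxb9, a posterior gene of the trunk, lay at 22.3 ± 3.44 CPM per kb and exceeded Hoxa13 in 12 of 20 mice, so these neighbors did not differ beyond their spread. Hoxa13 exceeded Hoxd10 (17.4 ± 4.70 CPM per kb) in 17 mice, and Hoxd10 exceeded Hoxa10 (16.5 ± 1.41 CPM per kb) in 14. Hoxa10 lay above Hoxa5 (10.2 ± 1.22 CPM per kb), a gene of the gut mesenchyme, in 20 of 20 mice.

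The middle of the order held Hoxa7 at 8.72 CPM per kb, Hoxa9 at 7.66, Hoxd12 at 5.27 and Hoxd11 at 3.65. Hoxd9, Hoxa11, Hoxa6, Hoxa3, Hoxb7, Hoxb5, Hoxa2, Hoxb4 and Hoxb6 had means from 2.73 down to 1.08 CPM per kb. Hoxd8, Hoxa4, Hoxb3, Hoxb2, Hoxb8, Hoxc4, Hoxd4 and Hoxd3 lay between 0.857 and 0.0538 CPM per kb. The genes of groups 2 to 4, which pattern the hindbrain and neck, lay at or below the 1.89 CPM per kb of Hoxa3. With the longest coding transcript in place of all exons as the length, 5 genes moved by more than 1.5 times, Hoxd11 to 7.69, Hoxa9 to 13.3, Hoxa3 to 4.13, Hoxb3 to 0.849 and Hoxb2 to 0.795 CPM per kb. With that length Hoxa10, at 21.2 CPM per kb, lay above Hoxd10.

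Levels increased with paralog number in the clusters, as a description across genes that share the same libraries. Spearman's rho between paralog number and the mean level per kb was 0.77 over the 29 tested genes, 0.81 over 11 HoxA genes, 0.60 over 9 HoxB genes and 0.93 over 8 HoxD genes. The increase was not even. In HoxA the level dropped from Hoxa10 (16.5 CPM per kb) to Hoxa11 (2.30 CPM per kb) before rising at Hoxa13, and in HoxB it stood at 0.328 CPM per kb at Hoxb8 and 22.3 CPM per kb at the adjacent Hoxb9. In HoxD each gene from Hoxd8 to Hoxd10 lay above its lower-numbered neighbor, and Hoxd11 (3.65 CPM per kb) lay below Hoxd10 (17.4 CPM per kb).

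The clusters differed in their share of the RNA. Summed over genes, HoxB gave 538 ± 60.03 CPM, HoxD 258 ± 55.2 CPM and HoxA 220 ± 18.6 CPM (SD, n = 20). HoxC gave 0.722 ± 0.290 CPM. Of its genes, Hoxc4 had 6 to 37 counts per mouse, and Hoxc5 had at most 8, Hoxc6 at most 5, Hoxc8 and Hoxc10 at most 3 and Hoxc9 at most 2. Hoxc5 was under 3 counts in 15 of 20 mice, Hoxc6 in 18, Hoxc8 and Hoxc10 in 19 each and Hoxc9 in 20, so these 5 genes were near or below what this depth can detect. With 18.4 to 34.97 megacounts per library, a HoxC gene as low as 0.163 CPM could have been missed.

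Among known regulators of gut position, Cdx1, an epithelial regulator of posterior identity, was at 290 ± 23.6 CPM (SD, n = 20). The pancreas and duodenum regulator Pdx1 lay between 0 and 0.221 CPM in the 19 mice other than mouse RS10_721, and Gata4, a regulator of the proximal intestine, between 0 and 0.431 CPM. The foregut and stomach regulators Sox2 and Barx1 reached at most 0.848 and 0.155 CPM. Prac1, Onecut2 and Cdx4 were not analysed here.

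The study asked how the amount of RPS in a Western diet changes the bowel, and for the Hox genes each RPS diet was compared with 0% RPS by edgeR's quasi-likelihood test in a fit over all genes. A gene was called at a Benjamini-Hochberg adjusted p of at most 0.05 and a fold change of at least 1.5. The 3 comparisons share the same 5 mice on 0% RPS and are not independent of each other.

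Hoxb13 was the Hox gene that differed most clearly with RPS. On 0% RPS its level was 446, 483, 541, 552 and 580 CPM, on 2% RPS 430, 448, 476, 508 and 517 CPM, on 5% RPS 379, 397, 413, 416 and 517 CPM, and on 10% RPS 386, 391, 414, 439 and 439 CPM. The mice on 10% RPS all lay below the mice on 0% RPS. The mice on 2% RPS overlapped the controls, and on 5% RPS 4 of 5 mice lay below the controls while mouse RS10_724, at 517 CPM, lay among them.

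Group means of Hoxb13 were 520 ± 54.7 CPM on 0% RPS, 476 ± 37.3 CPM on 2%, 425 ± 53.9 CPM on 5% and 414 ± 25.2 CPM on 10% (SD, n = 5 each). At 10% RPS the log2 change was -0.33 ± 0.088 (SE), a level 0.795 times that of the controls, with an edgeR adjusted p of 0.0941, so it was not called. DESeq2 gave an adjusted p of 0.0275 for the same comparison, also under the fold threshold. Hoxb13 was 1 of 29 Hox genes whose mice on 10% RPS and 0% RPS did not overlap, against 2.28% of all genes tested, or 1.15% with the mice on RPS all below. None of the 29 had this property at 5% or 2% RPS, where it held for 1.04% and 0.240% of all genes.

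Along the percentage of RPS taken as a number, Hoxb13 was called. Its level fell by 0.032 ± 0.0083 on the log2 scale per percent RPS, a change of -2.21% per percent, with an edgeR adjusted p of 0.0425. It was 1 of 29 Hox genes called in this trend, in which 2.10% of all genes were called and 0.950% were called as falling. DESeq2 also called Hoxb13 and no other Hox gene (adjusted p = 0.0135, 6.02% of all genes called). Hoxd9 (-0.053 per percent, edgeR adjusted p = 0.175) and Hoxd11 (-0.051 per percent, edgeR adjusted p = 0.192) had an unadjusted p under 0.05 without passing the adjustment, which with Hoxb13 made 3 of 29 genes against 19.1% of all genes.

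The Hoxb13 trend stood close to the threshold. Grouped by the treatment label, the slope was -0.022 with an edgeR adjusted p of 0.33, and without the 3 mice whose labels disagree it was -0.031 with an adjusted p of 0.104. Leaving out each mouse in turn gave slopes from -0.035 to -0.028 and edgeR adjusted p-values from 0.0254 to 0.116, and the call was lost in 13 of 20 fits.

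Tissue markers moved beside the Hoxb13 values. The epithelial score, the mean log2 CPM of 10 epithelial genes, averaged 10.27 on 0% RPS, 10.29 on 2%, 10.44 on 5% and 10.48 on 10%. With this score as a covariate the Hoxb13 slope was -0.031 and its edgeR adjusted p 0.49, and with the score of 12 smooth muscle genes it was -0.030 with an adjusted p of 0.0599. Prostate RNA, read here almost only from Pbsn, is relevant because Hoxb13 is transcribed in prostate epithelium. The 2 mice with the most of it, RS10_707 and RS10_724, had 483 and 517 CPM of Hoxb13, and without mouse RS10_707 the slope was -0.033 (edgeR adjusted p = 0.0607) and without mouse RS10_724 the adjusted p was 0.0362. The part of either tissue in the Hoxb13 levels was not tested.

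**Figure D2:**
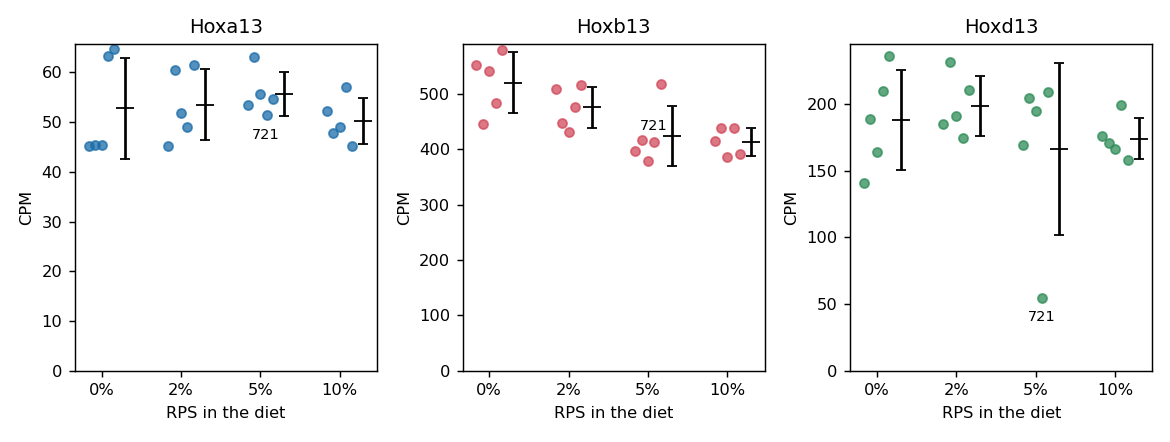
CPM of the 3 genes of paralog group 13 by percent RPS in the diet, with 1 point per mouse and the mean ± SD of 5 mice beside the points. Hoxb13 runs from a mean of 520 CPM on 0% RPS to 414 CPM on 10% RPS, Hoxa13 stays between means of 50.3 and 55.7 CPM, and mouse RS10_721 (marked by the end of its number) lies at 54.8 CPM of Hoxd13.

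No change was called in the other group 13 genes. Hoxd13 was at 141, 164, 189, 210 and 236 CPM on 0% RPS, at 175, 185, 191, 210 and 231 CPM on 2%, at 54.8, 169, 195, 204 and 209 CPM on 5% and at 158, 167, 171, 176 and 199 CPM on 10%. The diets overlapped throughout, apart from mouse RS10_721 at 54.8 CPM. At 10% RPS the log2 change of Hoxd13 was -0.11 ± 0.24 (edgeR adjusted p = 0.874). This error comes from a fit that includes mouse RS10_721, and it leaves room for a fall as large as that of Hoxb13. Leaving out each mouse in turn gave log2 changes from -0.198 to -0.016 and edgeR adjusted p-values from 0.686 to 0.992.

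Hoxa13 was at 45.2, 45.3, 45.4, 63.3 and 64.6 CPM on 0% RPS, at 45.2, 48.9, 51.7, 60.4 and 61.4 CPM on 2%, at 51.4, 53.4, 54.7, 55.7 and 63.1 CPM on 5% and at 45.1, 47.9, 49.1, 52.3 and 57.1 CPM on 10%. The 4 diets covered nearly the same range. At 10% RPS its log2 change was -0.07 ± 0.11 (edgeR adjusted p = 0.818). Whether the change of Hoxb13 differs from those of Hoxa13 and Hoxd13 was not tested.

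At 10% RPS, 0 of 29 Hox genes were called by edgeR, which called 0.0391% of all genes, and 0 by DESeq2, which called 1.21%. At an unadjusted p under 0.05 there was 1 Hox gene, Hoxb13, against 15.2% of all genes. The sign was negative for 26 of 29 genes, with a median log2 change of -0.12 against -0.015 over all genes tested. Genes of 1 cluster lie together on a chromosome and were read in the same libraries, so these signs are not independent.

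The largest differences in size at 10% RPS were in low or variable genes of HoxD. Hoxd3 had 0.181, 0.253, 0.417, 0.528 and 0.567 CPM on 0% RPS and 0.157, 0.213, 0.228, 0.327 and 0.466 CPM on 10% RPS. These ranges overlapped, and the log2 change was -0.49 ± 0.40 (edgeR adjusted p = 0.594).

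Hoxd11, a posterior gene of limb and kidney, had 21.3, 23.3, 23.5, 24.2 and 28.99 CPM on 0% RPS and 15.2, 15.5, 16.7, 20.4 and 21.5 CPM on 10% RPS. The highest mouse on 10% RPS reached just into the range of the controls, and the log2 change was -0.44 ± 0.23 (edgeR adjusted p = 0.37). Hoxd9 had 5.36, 5.70, 6.00, 7.44 and 8.89 CPM on 0% RPS and 4.07, 4.54, 4.67, 5.59 and 5.93 CPM on 10% RPS. Its groups overlapped in the range from 5.36 to 5.93 CPM, with a log2 change of -0.43 ± 0.23 (edgeR adjusted p = 0.374). The errors of these HoxD genes come from a fit that includes mouse RS10_721. Without it the changes were unmoved and the errors smaller, with edgeR adjusted p-values of 0.108 for Hoxd11 and 0.225 for Hoxd9. In the trend along percent RPS without mouse RS10_721, Hoxd11 was called beside Hoxb13, with a slope of -0.048 ± 0.012 and an edgeR adjusted p of 0.0362. That mouse was singled out by its HoxD values, Hoxd11 among them, so this call is a description and not a test. With all mice Hoxd11 was not called in the trend (edgeR adjusted p = 0.192).

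At 5% RPS, 0 of 29 Hox genes were called by edgeR or DESeq2, which called 0.00% and 0.156% of all genes, and 2 had an unadjusted edgeR p under 0.05 against 9.19% of all genes. Of the 29 genes 16 were lower and 13 higher, with a median log2 change of -0.05. Hoxb13 changed by -0.29 ± 0.088 (edgeR adjusted p = 0.346).

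The genes with the largest changes at 5% RPS were Hoxc4, Hoxd4 and Hoxd10, and for each of them 1 mouse moved the value by more than 1.5 times. Hoxc4 had 0.285, 0.342, 0.482, 0.510 and 0.744 CPM on 0% RPS and 0.496, 0.541, 0.625, 0.762 and 1.33 CPM on 5%, with mouse RS10_721 highest. The ranges overlapped, and its log2 change of 0.66 ± 0.31 (edgeR adjusted p = 0.54) was 0.35 without that mouse. Hoxd10, active in the posterior trunk and limb, had 28.7, 33.0, 33.7, 37.8 and 48.5 CPM on 0% RPS and 7.51, 27.0, 31.6, 35.4 and 36.7 CPM on 5%, with mouse RS10_721 lowest. Its change of -0.39 ± 0.28 (edgeR adjusted p = 0.69) was -0.16 without that mouse. Hoxd4 had 0.497, 0.595, 0.693, 0.696 and 0.833 CPM on 0% RPS and 0.132, 0.395, 0.406, 0.729 and 0.848 CPM on 5%. Its change of -0.42 ± 0.39 (edgeR adjusted p = 0.767) was -0.17 without mouse RS10_717, the lowest and 1 of the 3 with disagreeing labels, and -0.67 without mouse RS10_724.

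At 2% RPS, 0 of 29 Hox genes were called by edgeR or DESeq2, which called 0.00% and 0.00386% of all genes, and 0 had an unadjusted edgeR p under 0.05 against 1.41% of all genes. The sign was positive for 22 and negative for 7, with a median log2 change of 0.08. Hoxc4 was at 0.486, 0.563, 0.572, 0.603 and 0.848 CPM and Hoxd8 at 2.83, 2.88, 2.99, 3.38 and 3.66 CPM. On 0% RPS, Hoxd8 was at 2.25, 2.44, 2.53, 2.64 and 3.31 CPM, and the groups overlapped for both genes. The log2 changes were 0.37 ± 0.32 for Hoxc4 and 0.26 ± 0.19 for Hoxd8, each with an edgeR adjusted p of 1.

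**Figure D3:**
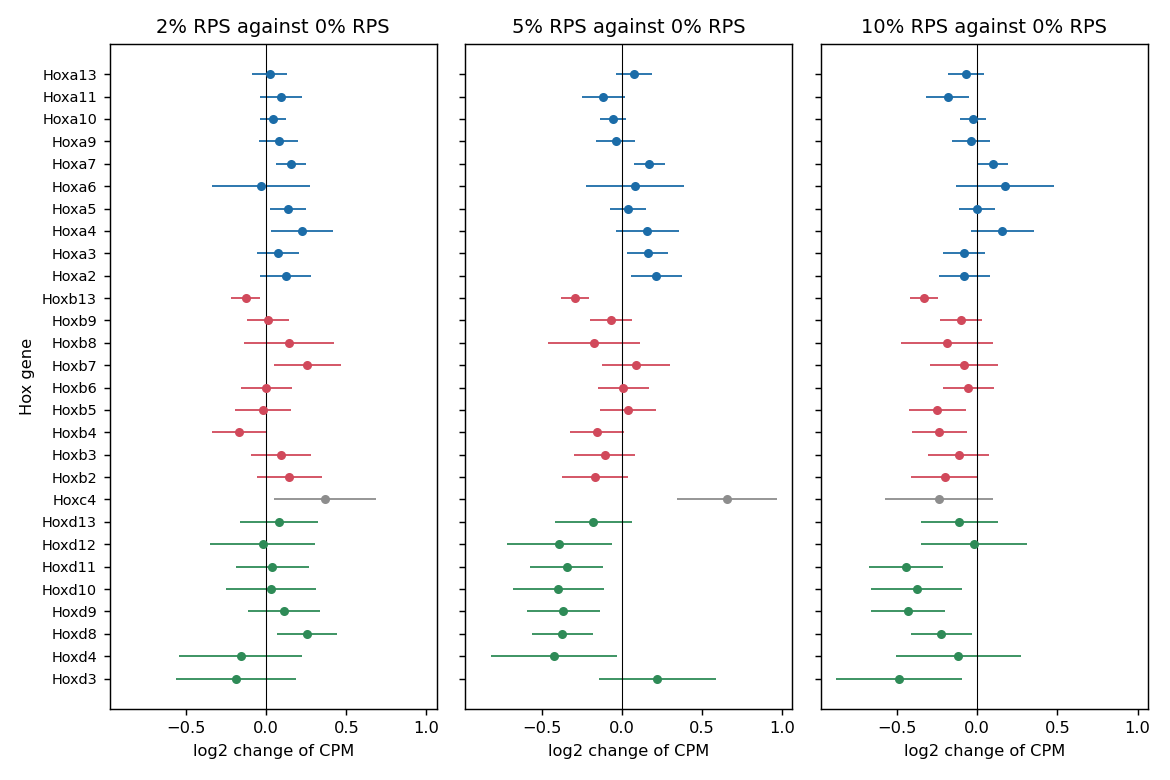
Log2 change of CPM against 0% RPS for 28 of the 29 tested Hox genes at 2, 5 and 10% RPS, with points for the edgeR estimate, bars for ± 1 SE and a color per cluster. Hoxb13 lies at -0.13, -0.29 and -0.33 from left to right with the narrowest bars among the HoxB genes, and no gene was called in any panel.

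In a test for a difference between any of the 4 diets, edgeR called 0 of 29 Hox genes (0.0727% of all genes). Hoxb13 had the smallest adjusted p, 0.227, and Hoxb13 and Hoxd8 had an unadjusted p under 0.05, against 10.6% of all genes. DESeq2 called Hoxb13 (adjusted p = 0.0453), with 2.01% of all genes called.

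Among the genes that flank the clusters, a transcript before Hoxb13 was picked out for its similar profile after the values were seen. Gm11535, a long noncoding RNA within 10 kb of the Hoxb13 start, averaged 4.04 ± 1.26, 3.04 ± 0.495, 2.95 ± 0.705 and 2.32 ± 0.413 CPM on 0, 2, 5 and 10% RPS (SD, n = 5). Its slope was -0.072 per percent RPS (edgeR adjusted p = 0.0572, DESeq2 adjusted p = 0.0185), and at 10% RPS its log2 change was -0.80 ± 0.22 (edgeR adjusted p = 0.0958, DESeq2 adjusted p = 0.0267). Of 18 tested genes that lie in or within 10 kb of the 4 clusters and are not Hox genes, edgeR called 0 at 10% RPS and in the trend, with 1 and 2 genes below an unadjusted p of 0.05, while DESeq2 found 1 in each of these. Over all genes the unadjusted shares were 15.2% and 19.1%, and those of DESeq2 1.21% and 6.02%. At 5% and 2% RPS both tools called 0, with 1 and 0 at an unadjusted edgeR p under 0.05.

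Genes that act with or on the Hox genes were followed as lists. The partner list held 14 genes, mostly the TALE cofactors (Pbx, Meis and Pknox), which bind DNA beside Hox proteins, with the Cdx and Evx genes, and 13 were tested. By edgeR 0 of 13 were called at 10% RPS or in the trend, with 2 (Pbx2 and Cdx2) at an unadjusted p under 0.05 in each, against 15.2% and 19.1% of all genes. In both, Cdx2 was the 1 gene that DESeq2 called. At 5% and 2% RPS both tools called 0 of 13, with 1 (Cdx2) and 0 at an unadjusted edgeR p under 0.05. Cdx2, which activates posterior Hox genes in the embryo and intestinal genes in the adult epithelium, averaged 11.5 ± 7.13 CPM on 0% RPS and 31.3 ± 7.98 CPM on 10% RPS (SD, n = 5). Its log2 change was 1.44 ± 0.44 (edgeR adjusted p = 0.139, DESeq2 adjusted p = 0.0389).

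Of 19 chromatin regulators of the Hox clusters, 1 was called in the trend by edgeR and 2 (Cbx7 and Pcgf2, both Polycomb genes) by DESeq2, against 2.10% and 6.02% of all genes. At 10% RPS 0 were called by both tools, with 4 at an unadjusted edgeR p under 0.05 against 15.2% of all genes. Cbx7, a subunit of a repressive Polycomb complex, averaged 50.9 ± 7.64 CPM on 0% RPS and 37.7 ± 5.63 CPM on 10% RPS, with a slope of -0.045 ± 0.0105 per percent (edgeR adjusted p = 0.0278). Of 3 regulators of the gut mesenchyme, edgeR called 1 in the trend, where 2.10% of all genes were called and 0.950% as falling. All 3 (Nkx2-3, Foxf1 and Foxf2) had an unadjusted edgeR p under 0.05 there and at 10% RPS, against 19.1% and 15.2% of all genes. The called gene was Nkx2-3, at 14.9 ± 1.47 CPM on 0% RPS and 11.7 ± 0.528 CPM on 10% RPS, with a slope of -0.038 ± 0.0092 (edgeR adjusted p = 0.0342). Grouped by the treatment label, edgeR called 0 of all genes in the trend, so the calls of Cbx7 and Nkx2-3 were lost.

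Mouse RS10_721, on 5% RPS, had low RNA from 1 end of the HoxD cluster. It was singled out after its values were seen, so they are given as a description with no test. Hoxd13 was at 54.8 CPM in mouse RS10_721 against 141 to 236 CPM in the other 19 mice, whose median was 3.45 times higher. Hoxd12 was at 1.94 CPM against 10.6 to 19.4 CPM, with a median 7.11 times higher. Hoxd11 was at 6.83 CPM against 15.2 to 31.2 CPM, and Hoxd10 at 7.51 CPM against 22.2 to 48.5 CPM.

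Away from these 4 genes the shortfall shrank along the cluster. Hoxd9, at 2.19 CPM against 4.07 to 9.14 CPM, and Hoxd8, at 1.26 CPM against 1.75 to 3.66 CPM, were also the lowest of the 20 mice. The ratio of the other mice's median to mouse RS10_721 was 4.48 for Hoxd10, 2.71 for Hoxd9 and 2.01 for Hoxd8. Hoxd4 and Hoxd3, each at 0.395 CPM, lay within the range of the other mice. The whole cluster summed to 75.3 CPM in mouse RS10_721 and to 213 to 346 CPM in the others.

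Neighbors of the HoxD genes were low as well. Evx2, a homeobox gene next to Hoxd13, was at 2.23 CPM against 5.44 to 11.8 CPM, and the noncoding Gm14396 at 0.216 CPM against 0.684 to 3.08 CPM. Gm28309, which shares sequence with Hoxd10 and Hoxd11, was at 3.59 CPM against 7.34 to 14.4 CPM. Of 9 genes averaging 1 CPM or more in the HoxD span and 10 kb to either side, 7 were under 0.5 times the next-lowest mouse in mouse RS10_721. Among all genes of at least 1 CPM this held for 23 of 15232 (0.151%), and among 24 Hox genes for 4, Hoxd10 to Hoxd13. In each of the other 19 mice it held for 0 Hox genes.

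Among the paralogs in other clusters, Hoxa13, Hoxb13 and Hoxa10 did not follow, while Hoxa11, the HoxA paralog of Hoxd11, was the lowest of the mice. Hoxa13 was at 51.4 CPM in mouse RS10_721, within the 45.1 to 64.6 CPM of the other mice, and Hoxb13 at 413 CPM, within 379 to 580 CPM. The HoxA sum of 228 CPM (191 to 253 CPM in the others) and the HoxB sum of 503 CPM (451 to 651 CPM) were also within range. As ratios of CPM within a library, Hoxd13 over Hoxa13 was 1.07 in mouse RS10_721 and 3.12 to 4.17 in the other mice, Hoxd10 over Hoxa10 was 0.141 against 0.351 to 0.810, and Hoxb13 over Hoxa13 was 8.04 against 6.59 to 12.2.

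A few genes of HoxA, HoxB and HoxC took an extreme place in mouse RS10_721 too. Hoxa11, the paralog of Hoxd11, was the lowest, at 3.59 CPM against 4.18 to 6.92 CPM. Hoxb2 was the lowest as well, at 0.827 CPM against 0.981 to 2.02 CPM. Hoxa7 (32.3 CPM against 19.4 to 27.6 CPM), Hoxb5 (6.50 CPM against 3.04 to 5.96 CPM) and Hoxc4 (1.33 CPM against 0.235 to 0.848 CPM) were the highest. Hoxc5 had 8 counts against at most 4 in any other mouse, and Hoxc8 3 counts against at most 2.

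**Figure D4:**
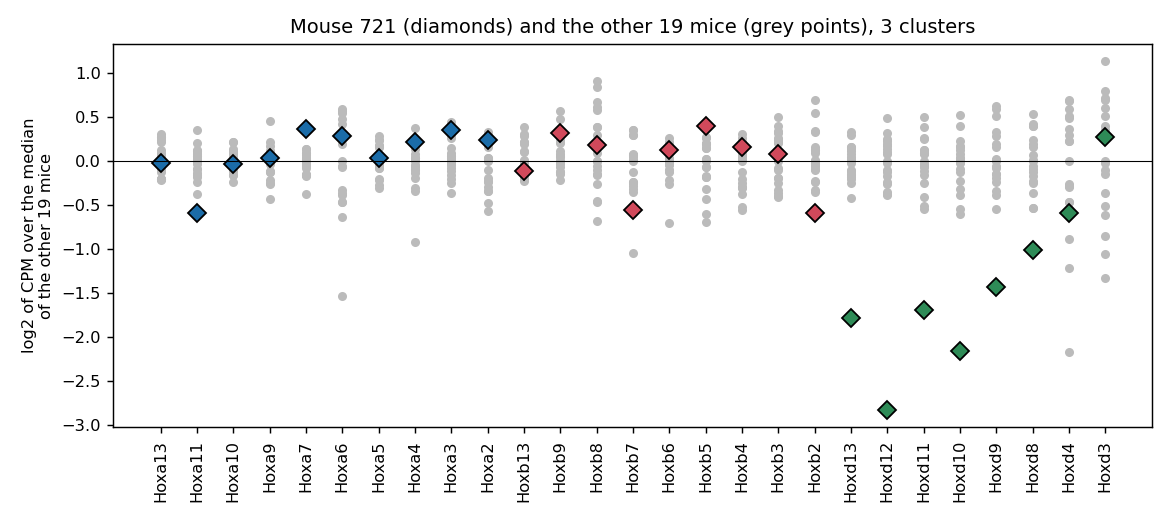
Log2 of the CPM of the genes shown of HoxA, HoxB and HoxD over the median of the 19 mice other than mouse RS10_721, with grey points for those mice and colored diamonds for mouse RS10_721. The diamonds of Hoxd13 to Hoxd8 lie below all grey points, while those of Hoxa13 and Hoxb13 lie among them.

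The tissue makeup of the mouse RS10_721 library differed at the same time. Its smooth muscle score was 9.02 against 9.40 to 10.2 in the other mice, and the 12 smooth muscle genes summed to 7943 CPM against 10081 to 17802 CPM. Its epithelial score of 10.66 lay just above the 10.07 to 10.64 of the others. The scores of the fibroblast, enteric neuron, enteric glia and leukocyte genes lay within the range of the other mice, for example 7.24 against 6.97 to 8.01 for fibroblasts. Pancreatic enzyme genes summed to 5019 CPM in mouse RS10_721, to 455 CPM in mouse RS10_784 (10% RPS) and to 6.58 to 18.7 CPM in the others. In mouse RS10_784, Hoxd13 was at 158 CPM and Hoxd12 at 17.2 CPM. The striated muscle genes summed to 18.5 CPM in mouse RS10_721 against 23.1 to 55.2 CPM in the other mice.

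Regulators of gut position also differed there. Cdx2 was at 84.6 CPM in mouse RS10_721 and at 5.77 to 40.9 CPM in the others, Pdx1 at 1.29 CPM against at most 0.221 CPM and Gata4 at 0.719 CPM against at most 0.431 CPM. The Hox cofactor Meis1 was at 11.3 CPM against 18.8 to 33.3 CPM, and Pbx3 at 20.8 CPM against 23.4 to 35.4 CPM. Their part in the HoxD values was not tested. With the HoxD shortfall in 1 library, it cannot be told apart from the tissue makeup and these regulators.

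The spread of the posterior HoxD genes within diets was smaller without the same mouse. The within-diet SD of log2 CPM was 0.66 for Hoxd12, 0.53 for Hoxd10, 0.45 for Hoxd13 and 0.43 for Hoxd11, and without mouse RS10_721 it was 0.27, 0.26, 0.19 and 0.21. Other genes with a wide spread were as variable without it, such as Hoxd4 (0.63 and 0.65) and Hoxa6 (0.53 and 0.55). Hoxb13 (0.14) and Hoxa10 (0.13) were among the steadiest Hox genes. The median over the Hox genes of at least 1 CPM was 0.26, or 0.24 without mouse RS10_721, against 0.19 over all genes.

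The sequence just before the first exon is shown for the 3 genes that moved with RPS or with the HoxD shortfall and hold a searched motif, Hoxb13, Hoxd13 and Hoxd11. Each stretch is the 250 bases of GRCm39 before the annotated start on the plus strand, at chr11:96084856-96085105 for Hoxb13, chr2:74498404-74498653 for Hoxd13 and chr2:74509651-74509900 for Hoxd11. Capitals mark a match to 1 of 4 searched motifs on either strand.
Hoxb13: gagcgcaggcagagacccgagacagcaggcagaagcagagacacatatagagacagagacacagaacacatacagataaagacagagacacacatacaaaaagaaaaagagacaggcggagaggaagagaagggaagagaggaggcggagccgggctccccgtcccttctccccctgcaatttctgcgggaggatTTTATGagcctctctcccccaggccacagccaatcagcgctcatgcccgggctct
Hoxd13: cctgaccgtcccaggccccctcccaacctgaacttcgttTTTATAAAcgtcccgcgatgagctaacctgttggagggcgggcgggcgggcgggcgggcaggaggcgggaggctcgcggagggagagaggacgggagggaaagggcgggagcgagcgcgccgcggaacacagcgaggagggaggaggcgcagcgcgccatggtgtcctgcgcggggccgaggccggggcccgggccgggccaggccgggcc
Hoxd11: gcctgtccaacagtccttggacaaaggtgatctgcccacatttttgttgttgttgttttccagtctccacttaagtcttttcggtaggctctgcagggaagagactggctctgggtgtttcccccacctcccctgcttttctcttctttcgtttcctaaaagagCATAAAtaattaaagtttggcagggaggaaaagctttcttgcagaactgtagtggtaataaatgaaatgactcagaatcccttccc

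The motifs were CATAAA for Cdx proteins, CAATAAA for group 13 Hox proteins, TGACAG for Meis proteins and TATAAA, the TATA box. The Hoxb13 and Hoxd11 stretches each held 1 CATAAA match, a motif found in 2394 of the 21770 stretches of the same length before protein-coding genes and in 11 of the 34 Hox stretches. The Hoxd13 stretch held TATAAA with an overlapping match on the other strand, a motif in 12.5% of all stretches and 6 of 34 Hox stretches. CAATAAA was in 4.4% of all stretches and 4 of 34 Hox stretches, and TGACAG in 15.2% and 4 of 34. Hoxd8, Hoxd9, Hoxd10 and Hoxd12, which were also lowest in mouse RS10_721, held none of the 4. The GC content was 74.4% for Hoxd13, 55.6% for Hoxb13 and 44.8% for Hoxd11, with a median of 51.2% over all stretches.

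Because the pieces held varying amounts of bowel wall, the Hox genes were also fitted along the smooth muscle score with diet as a factor. Hoxd11 rose by 1.22 ± 0.27 on the log2 scale per unit of the score (edgeR adjusted p = 0.0143) and was the 1 Hox gene of 29 called by edgeR, which called 2.82% of all genes. A further 10 genes had an unadjusted p under 0.05, making 8 with a positive and 3 with a negative slope, against 17.3% of all genes, or 8.43% with a negative slope. DESeq2 called 4, Hoxd10, Hoxd11 and Hoxd12 with positive and Hoxb9 with negative slopes, and 4.99% of all genes. The edgeR slopes were 1.27 ± 0.40 for Hoxd10 (adjusted p = 0.109), -0.56 ± 0.16 for Hoxb9 (adjusted p = 0.0649) and 0.18 for Hoxb13 (adjusted p = 0.519).

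The HoxD slopes rested on mouse RS10_721. Without it edgeR called 0 of 29 Hox genes along the score, and 3 had an unadjusted p under 0.05. The shares of all genes given above belong to the fit with all mice. Those of the fit without mouse RS10_721 are not given here, so these counts have no background beside them. The slope of Hoxd11 was then 0.60 ± 0.23 (edgeR adjusted p = 0.238) and that of Hoxd10 0.40 (adjusted p = 0.575), that of Hoxd12 was 0.23, and that of Hoxd13 changed from 0.76 to -0.18. The slopes of Hoxb9, -0.66 ± 0.22 (edgeR adjusted p = 0.165), and Hoxb13, 0.25 (adjusted p = 0.54), kept their sign without the mouse.

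**Figure D5:**
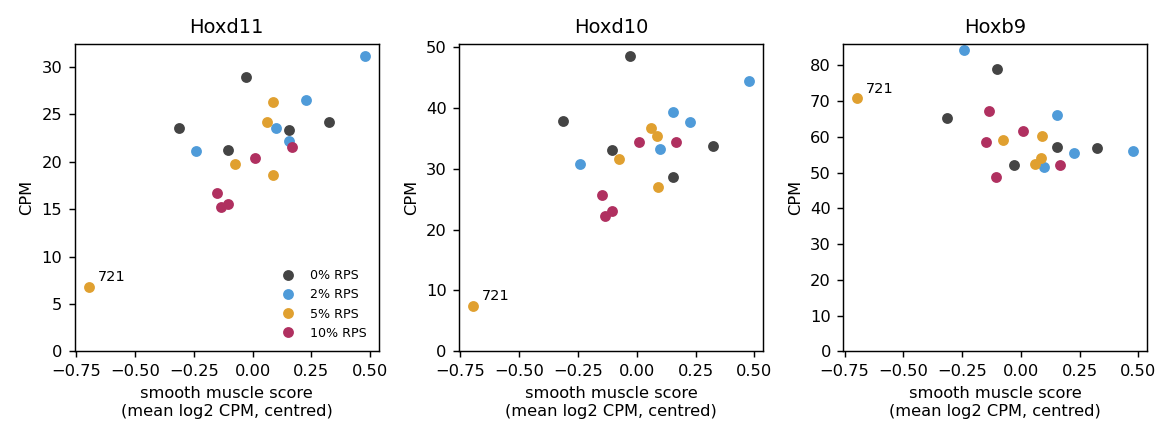
CPM of Hoxd11, Hoxd10 and Hoxb9 against the smooth muscle score (mean log2 CPM of 12 genes, centred over the mice), with 1 point per mouse colored by diet. Mouse RS10_721 (marked by the end of its number) lies alone at a score of -0.696 with 6.83 CPM of Hoxd11 and 7.51 CPM of Hoxd10, while its Hoxb9 lies among the other mice.

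Of 13 tested partners edgeR called 3 along the muscle score, against 2.82% of all genes. The slopes were 1.20 ± 0.16 for Meis1 (edgeR adjusted p = 0.000102), 0.69 for Pbx3 (adjusted p = 0.0015) and 0.65 for Meis2 (adjusted p = 0.0257). Without mouse RS10_721 the edgeR slopes were 0.95 for Meis1 (adjusted p = 0.0119), 0.68 for Pbx3 (adjusted p = 0.035) and 0.62 for Meis2 (adjusted p = 0.175), so the call of Meis2 was lost. Hoxb5os, an antisense transcript that overlaps Hoxb5, Hoxb6 and Hoxb9, had a slope of 0.92 (edgeR adjusted p = 0.0251) and of 0.97 (adjusted p = 0.138) without mouse RS10_721.

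Along the epithelial score with diet as a factor, edgeR called 0 of 29 Hox genes (0.559% of all genes), with 4 at an unadjusted p under 0.05 against 11.8% of all genes. DESeq2 called 2, Hoxd10 and Hoxd13, both with negative slopes (2.73% of all genes). Without mouse RS10_721 the edgeR slopes were -1.30 for Hoxd10 (adjusted p = 0.229) and -0.85 for Hoxd13 (adjusted p = 0.383). Cbx7 fell by 1.31 on the log2 scale per unit of the epithelial score (edgeR adjusted p = 0.0124).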

How the data were processed

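RNA of 20 DC samples was sequenced as stranded, polyA-selected libraries with reads of 50 bases. The authors trimmed the reads, mapped them to GRCm39 in CLC Genomics Workbench and deposited whole-number counts per gene, not normalised and not pooled. The annotation they used and the strand setting of the counting are not given in the sources used here.

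From these counts, identifiers were matched to GENCODE vM39 (26338 of 26619 rows, with 281 unmatched rows kept in library sizes and tests without a symbol). Analyses used R 4.3.3. Genes were filtered with filterByExpr (minimum count 10), which kept 17893, and libraries were scaled by TMM. Genes were tested with the quasi-likelihood procedure of edgeR 4.0.16 (robust) in one fit over the 20 mice, with adjustment over all tested genes. DESeq2 1.42.0 was the alternative tool. A fold change of at least 1.5 was required in the 3 comparisons with 0% RPS and not in the trend, the test of any diet or the slopes along marker scores. CPM use TMM-scaled library sizes, log2 CPM a prior count of 2, and levels per kb the union of exons. Scores are the mean log2 CPM of a list. The total count per mouse limits precision to counting error at the floor of 3 counts, and 40 pairs of mice within diets differed by more than sampling noise (chi-square per degree of freedom from 9.10 to 62.9). Nothing in the sources used here says more than that the libraries are from separate mice, so p-values measure the spread between mice of this experiment.

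Values per mouse are given for group 13, for the 3 genes with the largest change in each diet comparison and for called genes. Genes outside the Hox set are named if called by edgeR or if they are among the regional regulators and cofactors listed for this purpose. Genes that flank a cluster were counted if their mean is at least 1 CPM, and only some of them are named. Mouse RS10_721, the counts around it, and Gm11535, Gm14396, Gm28309, Evx2, Pbx2 and Pcgf2 were chosen after their values were seen. One Hox gene counted in the totals, and some marker genes, are not reported here. The members and the gene lists were chosen with earlier results of these data known. The edgeR procedure was tested on simulated data in which 200 genes were changed 2-fold at 10% RPS. It recovered 96% of them in the comparison of 10% with 0% RPS and 96.5% in the trend. Of its calls, 2.04% in that comparison and 6.76% in the trend were false, and without changes it made 0 calls. The changed genes were drawn only from those with higher mean counts, and every simulated gene was given the same spread between mice. Recovery in low genes such as Hoxd3, or in variable genes such as Hoxd12 and Hoxd4, was therefore not tested. Recovery of changes smaller than 2-fold, such as that of Hoxb13, was not tested either.

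Alternatives were DESeq2, RLE scaling, no filter on low counts, each mouse left out, the treatment label, the 3 mice with disagreeing labels left out, the smooth muscle score as a covariate, the mice of 2 diets alone at 10% RPS, the longest transcript as length and, added after seeing the data, the epithelial score as a covariate. Sequences, exons and the 250 bases before each start were read from GRCm39 with the GENCODE vM39 annotation.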

Additional observations from a re-analysis of the deposited data

Results flagged for a closer look

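Within each diet of 5 mice, the gap between the most extreme mouse and the next was compared with the range of the diet (Dixon's criterion). Over 124 such checks, 5 values stood apart, and chance flags about 1 in 20 groups, or 6.2 here. Hoxd13 was at 54.8 CPM in mouse RS10_721 on 5% RPS, with the next mouse at 169 CPM, and the centred smooth muscle score of the same mouse was -0.696 with the next at -0.0757. Hoxb13 was at 517 CPM in mouse RS10_724 on 5% RPS, with the next mouse at 416 CPM, and that library held 22.3 megacounts (next 28.7) and prostate RNA. Hoxb8 was at 1.36 CPM in mouse RS10_731 on 10% RPS, with the next mouse at 0.761 CPM.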

How the results depend on the processing

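The count of called Hox genes in the trend along percent RPS, 1 by edgeR, was 0 with the treatment label, without the 3 mice whose labels disagree, and with the smooth muscle or the epithelial score as a covariate, and leaving out 1 mouse gave 0 to 2, with 7 of 20 fits holding a call. DESeq2 called 1 Hox gene for any diet, 4 along the smooth muscle score and 2 along the epithelial score, where edgeR called 0, 1 and 0. Leaving out 1 mouse gave 0 to 2 along the smooth muscle score, with 0 without mouse RS10_721 and 2 without mouse RS10_704 or mouse RS10_708, and 0 in every such fit for the 3 diet comparisons, any diet and the epithelial score. No called value turned its direction, and the cause of the lost calls was not tested. Over all genes, the calls at 10% RPS were 7 by edgeR and 210 by DESeq2, and in the trend 375 and 985, with 0 under the treatment label and 56 without the 3 mice. The depth here leaves 5 HoxC genes near the floor. No paired analysis was possible because a mouse number belongs to 1 animal and does not recur across diets.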
